A study of Homo sapiens with 12 samples.

Results

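Of 44498 YTHDF1 peaks mapped in H1, a widely used line of human embryonic stem cells, 222 (0.499%) overlapped an RNF2 peak by at least 1 bp and no H2AK119ub island. They were 3.94% of the 5641 YTHDF1 peaks with RNF2, so YTHDF1 and RNF2 without the mark was the rare state. The 222 peaks are called members here. They were chosen by their presence in the YTHDF1 and RNF2 lists and absence from the H2AK119ub list, so their enrichment in those lists is given as a description. The maps came from chromatin immunoprecipitation followed by sequencing (ChIP-seq), with 12 libraries in 6 groups of 2 replicates. The groups were YTHDF1, RNF2, H2AK119ub and input in untreated H1 cells, and YTHDF1 and input in H1 cells treated with an shRNA against YTHDF1 (YTHDF1 KD). The authors merged the replicates into 1 list per antibody and condition, so no spread between replicates could be measured, no test was run, and read depth was unknown. No expression was measured, so the labelled cell type could not be checked against marker genes. Values in brackets after a share are exact (Clopper-Pearson) 95% binomial intervals, which cover counting error only.

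YTHDF1 belongs to the YTH family of proteins that bind RNA carrying the methyl mark m6A (N6-methyladenosine). RNF2, also called RING1B, is a ubiquitin ligase at the core of the Polycomb complex PRC1, which attaches ubiquitin to a lysine of histone H2A. The resulting mark, H2AK119ub, typically forms broad domains over silent developmental genes in embryonic stem cells, and RNF2 is also found at some active promoters. The remaining YTHDF1 peaks comprised 5419 with both RNF2 and H2AK119ub, 7190 with H2AK119ub but no RNF2, and 31667 with neither.

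The members that lay on gene starts can be shown as sequence, since RefSeq promoter windows (GRCh38.p14, the hg38 assembly) cover 250 bases before to 50 bases after a start. Below are the 250 bases before the start for 6 of the promoters with the strongest YTHDF1 peaks, read 5′ to 3′ on the gene's strand. They were taken from the 8 strongest promoters with at least 150 bases covered by a member, leaving out DCP1B and B9D2, whose upstream bases lie in another gene. Capitals mark CCGGAAG or its reverse complement, a core recognised by ETS transcription factors. That motif was chosen for display after the motif shares had been seen. ZNF548 lies at chr19:57389604-57389853, ZNF493 at chr19:21396883-21397132, RBM11 at chr21:14215907-14216156, RTF2 at chr20:56468377-56468626, PCBP2 at chr12:53451852-53452101 and SREK1 at chr5:66144050-66144299. All 6 genes are on the plus strand.
ZNF548: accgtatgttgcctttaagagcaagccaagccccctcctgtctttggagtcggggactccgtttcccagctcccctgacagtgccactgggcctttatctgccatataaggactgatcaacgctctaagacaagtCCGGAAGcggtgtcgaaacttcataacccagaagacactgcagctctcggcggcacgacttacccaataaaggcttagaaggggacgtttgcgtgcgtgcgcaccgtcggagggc
ZNF493: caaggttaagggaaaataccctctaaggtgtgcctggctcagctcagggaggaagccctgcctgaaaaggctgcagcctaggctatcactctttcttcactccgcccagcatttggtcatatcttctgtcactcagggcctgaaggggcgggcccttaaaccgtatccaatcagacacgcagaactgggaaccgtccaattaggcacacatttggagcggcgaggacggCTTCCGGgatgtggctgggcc
RBM11: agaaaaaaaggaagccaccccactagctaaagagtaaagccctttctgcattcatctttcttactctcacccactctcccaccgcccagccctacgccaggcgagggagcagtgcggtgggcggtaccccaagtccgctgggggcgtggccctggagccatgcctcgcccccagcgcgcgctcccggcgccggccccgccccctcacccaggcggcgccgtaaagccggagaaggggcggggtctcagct
RTF2: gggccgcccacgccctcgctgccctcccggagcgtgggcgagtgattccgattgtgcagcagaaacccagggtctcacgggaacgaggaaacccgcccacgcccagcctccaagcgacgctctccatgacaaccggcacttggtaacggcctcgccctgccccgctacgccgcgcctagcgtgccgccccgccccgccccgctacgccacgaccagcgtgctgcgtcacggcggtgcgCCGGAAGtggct
PCBP2: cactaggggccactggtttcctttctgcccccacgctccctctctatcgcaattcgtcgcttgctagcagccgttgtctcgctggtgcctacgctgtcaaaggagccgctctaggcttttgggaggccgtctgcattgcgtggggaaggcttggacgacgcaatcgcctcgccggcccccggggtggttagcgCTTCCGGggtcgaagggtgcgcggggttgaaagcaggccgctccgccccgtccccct
SREK1: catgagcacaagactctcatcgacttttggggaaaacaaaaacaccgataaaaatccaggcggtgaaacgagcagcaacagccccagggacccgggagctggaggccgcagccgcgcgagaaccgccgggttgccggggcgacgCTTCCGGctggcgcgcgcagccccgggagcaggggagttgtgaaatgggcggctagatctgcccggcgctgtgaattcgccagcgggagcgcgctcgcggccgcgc
The motif stood once in 5 of these 6 stretches and was absent from the letters of the RBM11 stretch. ZNF548 and ZNF493 encode zinc-finger proteins, RBM11 an RNA-binding splicing regulator, RTF2 a replication termination factor, PCBP2 a poly(C)-binding protein and SREK1 a splicing regulator.

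At these 6 promoters the YTHDF1 peak was modest and lay on or beside the start. The YTHDF1 fold enrichment, as the authors deposited it for each peak, was 4.35 at ZNF548 and 4.21 at ZNF493. It was 4.07 at RBM11, 3.93 at RTF2, 3.78 at PCBP2 and 3.55 at SREK1. The 4 members at ZNF548, ZNF493, RBM11 and RTF2 covered all 300 bases of the window, and those at PCBP2 and SREK1 covered 298 and 226. The summit of the member lay 87 bp from the start at ZNF548, 35 bp at ZNF493, 38 bp at RBM11, 100 bp at RTF2, 84 bp at PCBP2 and 245 bp at SREK1. The nearest H2AK119ub island was 20.4 kb away at ZNF548, 8.80 kb at ZNF493, 55.1 kb at RBM11, 22.9 kb at RTF2, 5.65 kb at PCBP2 and 216 kb at SREK1. The distance from the mark thus ranged from 5.65 kb to 216 kb between these starts. They were chosen for strong YTHDF1 peaks, which limits the spread of their YTHDF1 enrichment. The spread of the distances was therefore not compared with that of the enrichment.

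The share of members at gene ends stood between that of YTHDF1 peaks with both RNF2 and H2AK119ub and that of all YTHDF1 peaks. The midpoint of 92 of the 222 members (41.4%, 34.9 to 48.2) was no more than 2 kb from the start or the end of a protein-coding gene. The background over all YTHDF1 peaks was 12.2%. The share was 62.2% (60.8 to 63.4) with both RNF2 and H2AK119ub, 14.7% with H2AK119ub alone and 2.85% with neither. Position was not used by the rule, and the members' interval did not reach the share of any other class. Members overlapped a coding gene in 137 cases (61.7%, 55.0 to 68.1), against 74.2% of the peaks with both features and 51.2% of all peaks. At the other extreme, 58 members (26.1%, 20.5 to 32.4) lay outside coding genes and more than 10 kb from any coding-gene end. That share was 10.3% with both features, 24.8% with H2AK119ub alone and 39.5% over all peaks.

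**Figure D1:**
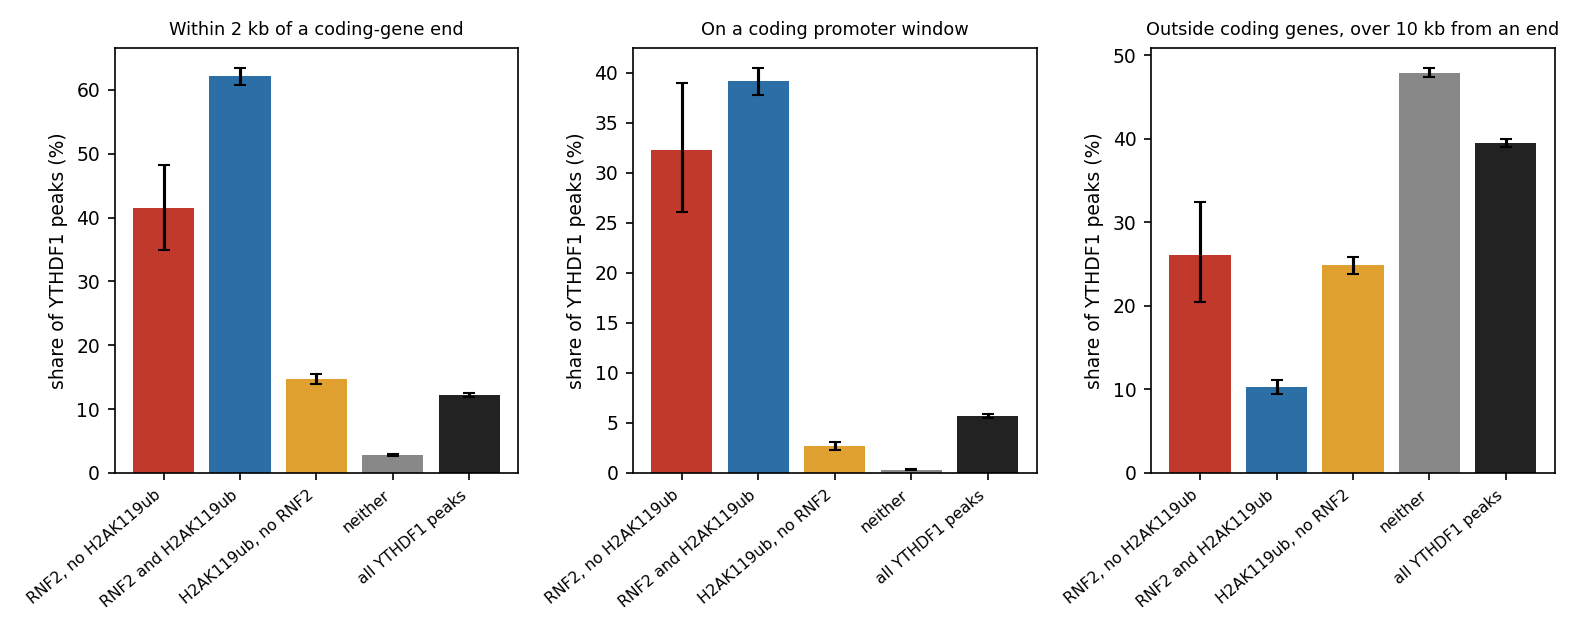
Share of YTHDF1 peaks (%, vertical axes) in 5 classes (horizontal axes) for 3 positions: within 2 kb of a coding-gene end, on a coding promoter window (chromosome 8 left out) and outside coding genes over 10 kb from an end. Bars give the share and lines the exact 95% interval; the members, at 41.4%, 32.3% and 26.1%, stand between the peaks with both features and all YTHDF1 peaks in each panel.

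Promoter windows gave a narrower view of the same position. Outside chromosome 8, for which no windows were used here, 70 of 217 members (32.3%, 26.1 to 38.9) overlapped a coding promoter window. Windows were available for 15843 of the 20037 coding genes, so peaks at starts without a window were not counted, in any class. The background over all YTHDF1 peaks was 5.66%, and the peaks with both features had 39.1% (37.8 to 40.5). The intervals of these 2 classes overlapped. The share was 2.65% with H2AK119ub alone and 0.322% with neither. The summit of 56 members (25.8%) was within 250 bp of a coding start with a window, as was that of 29.2% of the peaks with both features. The 70 members overlapped the windows of 78 coding genes, and another 8 members overlapped only windows of other genes, which made 78 members on any window.

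Among them were 8 bidirectional starts, where 1 member overlapped the windows of coding genes on opposite strands. These pairs were B9D2 with TMEM91, FARS2 with LYRM4, KBTBD4 with NDUFS3, DZANK1 with POLR3F, DPH3 with OXNAD1, ATG13 with HARBI1, NUMA1 with LRRC51 and LRTOMT, and SARNP with ORMDL2. FARS2 and NDUFS3 encode mitochondrial proteins, POLR3F a subunit of RNA polymerase III and ATG13 an autophagy factor. YTHDF1 fold enrichment at the 8 ranged from 2.80 to 3.57, and RNF2 fold enrichment from 3.18 to 4.77. Only the B9D2 and TMEM91 member had an RNF2 peak that reached an island, 77 bp away. These bidirectional starts were picked out after their positions had been seen.

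The YTHDF1 signal of members was near that of the whole list. Their fold enrichment ran from 2.41 to 4.66 with a median of 2.90, against a median of 2.89 over all YTHDF1 peaks and 2.95 over those with both features, which reached 74.7. The members' median width was 465.5 bp, against 408 bp over all peaks. The median −log10 q of the members was 1.89, against 1.87 over all YTHDF1 peaks and 2.11 over those with both features. A −log10 q below 2, close to the lowest value in the list (1.502), was found in 120 of the 222. As the median over all peaks was also below 2, such low values were common in the whole list. A −log10 q of 4 or more was reached by 16 members (7.21%, 4.18 to 11.4). The background was 2.39% of all YTHDF1 peaks, and the share was 8.12% (7.41 to 8.88) of those with both features. Of those 16 members, 12 were at a coding-gene end (75.0%, 47.6 to 92.7), against 80 of the other 206 (38.8%, 32.1 to 45.9). Among all YTHDF1 peaks the shares were 34.3% at a −log10 q of 4 or more and 11.6% below it. Among the peaks with both features they were 71.1% (66.7 to 75.3) and 61.4%. The first of these lies within the interval of the 16 strong members.

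The strongest member was at DPY30, a shared subunit of the complexes that methylate histone H3 on lysine 4. This member (chr2:32038291-32040271) was also the widest, at 1981 bp. Its YTHDF1 fold enrichment was 4.66, with a −log10 q of 9.48, and it lay wholly within an RNF2 peak of 2415 bp with 8.92-fold enrichment. That was the highest RNF2 enrichment among the 176 members whose RNF2 peak reached no island, and the nearest island was 21.7 kb away. The second strongest member, chr17:25383646-25384056, overlapped no gene. Its YTHDF1 fold enrichment was 3.47 and its −log10 q 7.36. The nearest gene of any kind was 1598 kb away and the nearest island 1.86 Mb, the longest distance among the members. Only called peaks were used, so how uniquely reads map to this gene-free stretch was not checked.

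The next 8 by strength were mostly gene starts. After ZNF548 and ZNF493 came the member at the start of DCP1B, which encodes an mRNA-decapping cofactor. That member also overlapped the calcium channel gene CACNA1C and had a YTHDF1 fold enrichment of 4.04. CAMTA1, a calmodulin-binding transcription activator, carried a member at 4.07-fold that lay 177 kb from the nearest coding-gene end. MATN1, which encodes a cartilage matrix protein, carried one at 4.06-fold. The members at CAMTA1 and MATN1 sat in breaks of 1000 and 1200 bp between islands, 155 and 88 bp from the nearer one. RBM11, B9D2 with TMEM91 (3.50-fold) and RTF2 completed the 10. Of these 10 members, 6 overlapped a coding promoter window. Past them, NEK10 (3.76-fold), the FARS2 and LYRM4 start (3.57-fold), HBP1 (3.70-fold) and, with equal values, ZNF285 and FAM185A (3.65-fold) had the strongest members on coding promoter windows after PCBP2 and SREK1. NEK10 encodes a kinase and HBP1 a transcriptional repressor.

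**Figure D2:**
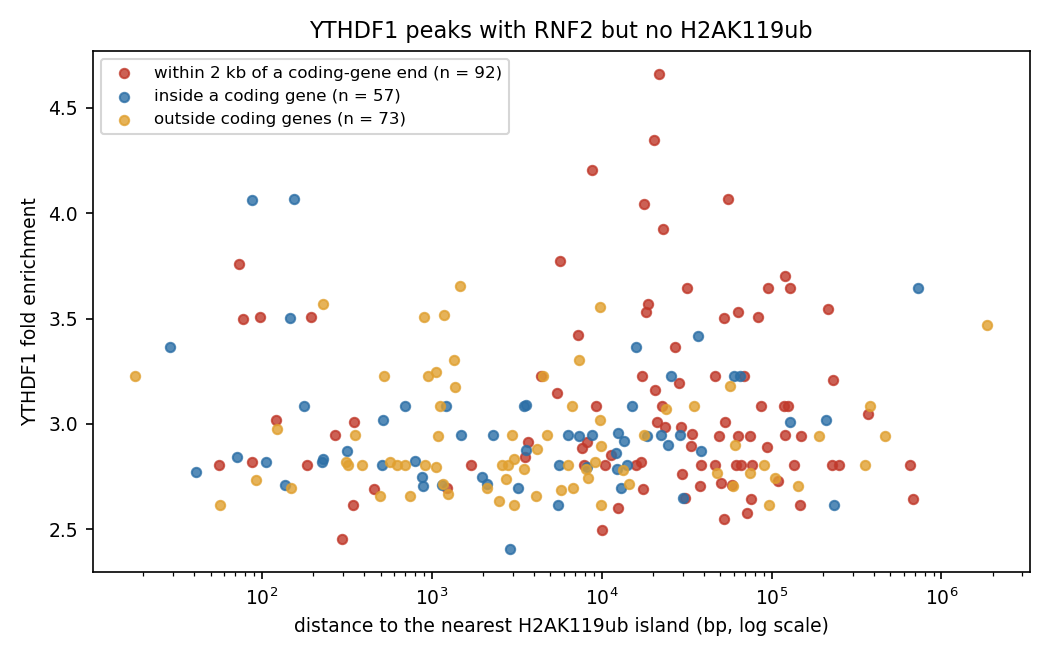
YTHDF1 fold enrichment (vertical axis) against the distance from the member to the nearest H2AK119ub island (horizontal axis, bp, log scale) for the 222 members, coloured by position. The 92 members near a coding-gene end lie mostly to the right, with a median of 28.9 kb, while enrichment stays between 2.41 and 4.66 at all distances.

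Distance to the mark spread over 5 orders of magnitude, from 18 bp to 1.86 Mb, with a median of 9.53 kb. An island lay closer than 200 bp, the step of the island list, for 22 members, and closer than 1 kb for 50. It lay closer than 5 kb for 89, while for 107 it lay 10 kb or farther and for 27 it lay 100 kb or farther. Members at coding-gene ends had a median distance of 28.9 kb, against 3.53 kb for the 130 others. Of the 107 members 10 kb or farther from an island, 66 (61.7%, 51.8 to 70.9) were at a coding-gene end. Of the 89 members closer than 5 kb, 18 (20.2%, 12.4 to 30.1) were. These intervals, which cover counting error only, did not overlap. The distances come from the island list that the rule used, and the difference was not tested, so it is given as a description.

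The 5 members nearest to an island were at EFL1P1, a pseudogene (18 bp), at GPR12, an orphan G protein-coupled receptor (29 bp), at GPC6, a glypican (41 bp), near N4BP1 (56 bp) and at chr20:20824858-20825151 (57 bp). Their YTHDF1 fold enrichments were 3.23, 3.37, 2.77, 2.81 and 2.62. On the other side of the rule, the 5 YTHDF1 peaks with RNF2 that overlapped islands least did so by 1 bp at chr6:28212800-28213126, 1 bp at KIF27, 3 bp at FEM1A, 6 bp at LCMT1 and 17 bp at CDCA2. Their YTHDF1 fold enrichments were 3.13, 2.94, 2.94, 3.37 and 3.37, so peaks just inside and just outside the rule had similar enrichment. In all, 48 of the 5419 peaks with both features overlapped islands by under 200 bp.

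Among the members farthest from an island were the chromosome 17 peak, TRIQK at 731 kb, PGK1 at 655 kb and LOC105372772 at 467 kb. PGK1 encodes a glycolytic enzyme. The PGK1 member was within 2 kb of a coding-gene end, and the other 3 named here were not. YTHDF1 fold enrichment was 3.65 at TRIQK, 2.81 at PGK1 and 2.94 at LOC105372772, and RNF2 fold enrichment ranged over these 4 from 2.78 at the chromosome 17 peak to 5.40 at PGK1.

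The RNF2 peaks under members were lower and narrower than those under YTHDF1 peaks with both features. The 222 members overlapped 225 RNF2 peaks, each of which held 1 member, and 3 members spanned 2 RNF2 peaks. The median RNF2 fold enrichment of the 225 was 3.30 and their median width 962 bp. The 4874 RNF2 peaks under YTHDF1 peaks with both features had medians of 4.98 and 2124 bp, and all 29310 RNF2 peaks had medians of 3.74 and 1347 bp. Of the 225, 46 (20.4%, 15.4 to 26.3) reached an island elsewhere along their length, against 85.1% of all RNF2 peaks. The rule used both lists, so these differences are descriptions. Of the 222 members, 111 lay wholly inside an RNF2 peak, and 31 had under 50% of their length covered.

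**Figure D3:**
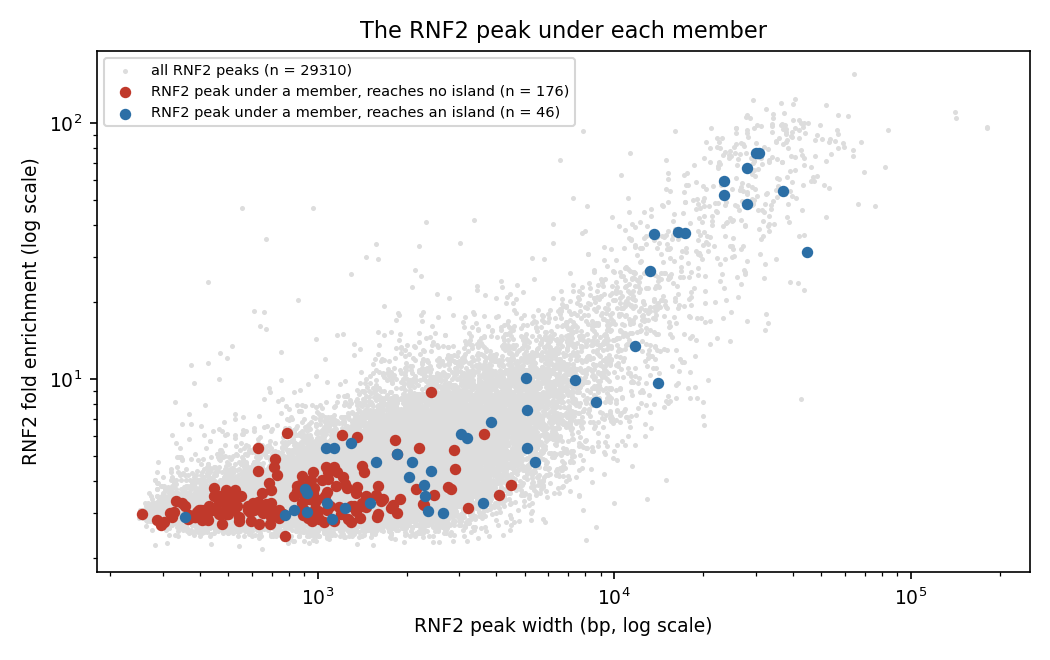
RNF2 fold enrichment against RNF2 peak width (bp), both on log scales, for all 29310 RNF2 peaks (grey) and the RNF2 peak under each of the 222 members. RNF2 peaks that reach no island (red, n = 176) stay at or below 8.92-fold, while those that reach one (blue, n = 46) extend along the wide and strong arm to 76.8-fold.

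Members were divided by whether their RNF2 peak reached an island. For 176 members it reached none, although 6 of these lay in a break between islands and the nearest was 269 bp from one. Their median RNF2 fold enrichment was 3.21, the median RNF2 width 857.5 bp and the median distance to an island 17.8 kb. For the other 46 the medians were 5.40, 3118.5 bp and 227.5 bp. A wide RNF2 peak or a near island makes it likelier that the peak reaches the island. The contrasts in width and distance therefore follow in part from the division. A coding-gene end was within 2 kb of 79 of the 176 (44.9%, 37.4 to 52.6) and 13 of the 46 (28.3%, 16.0 to 43.5), and these intervals overlapped. The median YTHDF1 fold enrichments were 2.92 and 2.83.

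The widest RNF2 peaks also held members. In 14 members the RNF2 peak was 10 kb or wider, with a median RNF2 fold enrichment of 43.0, and YTHDF1 fold enrichment there was 2.63 to 3.57. Only 1 of the 14, at GRP, was within 2 kb of a coding-gene end. The 10 highest RNF2 enrichments under members were 76.8 at LOC107986872, 76.4 at chr18:22158460-22158851, 66.9 at RBM27-POU4F3, 59.6 at chr2:19369314-19369863, 54.2 at chr1:220903931-220904540, 52.4 near SHOX2, 48.4 near CCNO, 37.6 at GRP, 37.4 near TCHH and 37.1 at DMRT1. POU4F3, SHOX2 and DMRT1 encode developmental transcription factors, CCNO a cyclin-family protein of multiciliated cells, GRP a gastrin-releasing peptide and TCHH a hair follicle protein. The islands nearest to these 10 members were between 149 bp (chr18) and 4.51 kb (CCNO) away and between 2.60 kb (DMRT1) and 27.0 kb (chr18) wide. Each of these 10 RNF2 peaks reached an island, so the mark was missing from the called list at the YTHDF1 peak and present elsewhere along the RNF2 peak.

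**Figure D4:**
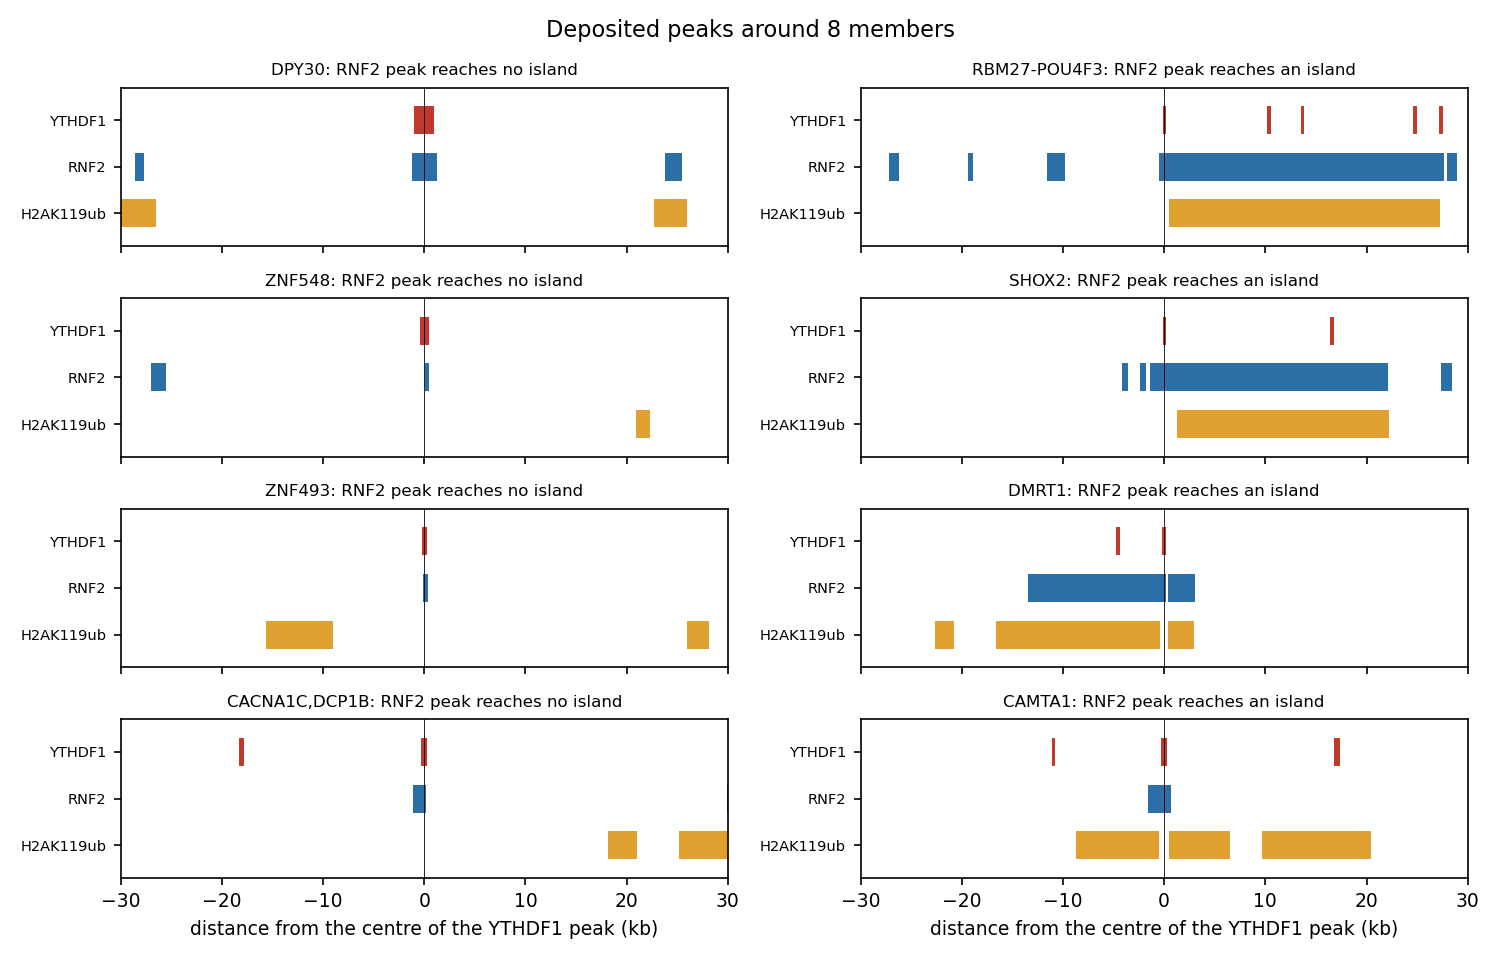
Deposited YTHDF1, RNF2 and H2AK119ub peaks within 30 kb either side of 8 members, by distance from the centre of the member (kb). In the left column (DPY30, ZNF548, ZNF493 and DCP1B with CACNA1C) the RNF2 peak at the centre reaches no island, and in the right column (RBM27-POU4F3, SHOX2, DMRT1 and CAMTA1) it does; these examples were chosen after their values had been seen.

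Breaks between islands held 18 members, each with an island within 5 kb on both sides (8.11%, 4.88 to 12.5). That share was not computed for other YTHDF1 peaks, so it is not read as particular to members. The break was 800 bp at DMRT1 and at N4BP1, 1000 bp at CAMTA1, CELF5 and ITGAE, 1200 bp at MATN1 and 1600 bp at FENDRR. The RNF2 peak reached an island in 12 of the 18. YTHDF1 fold enrichment ranged from 2.67 to 4.07 in these breaks and RNF2 fold enrichment from 2.85 to 54.2. Of the 18, 2 were within 2 kb of a coding-gene end, at N4BP1 and SEC23B. FENDRR is a noncoding RNA gene of developing mesoderm, and CELF5 encodes an RNA-binding protein. These breaks are gaps in a called list, and H2AK119ub signal within them was not analysed here.

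The base composition of member promoters was set beside that of other promoters. The members overlapped 87 coding windows of 78 genes, and windows of 1 gene or of a bidirectional pair can share bases, so they are not independent. Their median GC content was 60.3%, against 70.0% over the 2580 windows under YTHDF1 peaks with both features and 62.3% over all 22199 coding windows. The 917 coding windows under an RNF2 peak and no island, which include windows of members, had 60.3% as well. The observed over expected ratio of CpG dinucleotides had a median of 0.829 in member windows, 0.870 under peaks with both features and 0.737 over all coding windows. It was 0.6 or higher, a usual bound for CpG-rich promoters, in 78 of the 87 member windows (89.7%, 81.3 to 95.2). That share was 92.1% under peaks with both features and 62.2% over all coding windows. The first 2 shares were alike within the members' interval, while the GC medians differed.

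For motifs, 10 short strings were searched on both strands of each 300-base window. They were the ETS core CCGGAAG, the GC box GGGCGG, the CCAAT box CCAAT, an NRF1-type site GCATGCGC, the cAMP response element TGACGTCA, the E-box CACGTG, an E2F site TTCCCGCC, the TATA box TATAAA, a YY1-type site GATGGC and GGACT, the DNA form of a core m6A motif. No string is contained in another, though neighbouring matches can share bases. The ETS core was in 32 of the 87 member windows (36.8%, 26.7 to 47.8). It was in 16.5% (15.1 to 18.0) of the windows under peaks with both features and in 12.8% of all coding windows. The windows under an RNF2 peak and no island had 29.1% (26.2 to 32.2), within the members' interval, so members were not separated from RNF2 sites without the mark in general. Counted once per gene it was 31 of 78 member genes (39.7%, 28.8 to 51.5), against 18.0% of the genes under peaks with both features and 16.5% of all genes with windows. Within CpG-rich windows it was 37.2% (26.5 to 48.9), 17.1% and 18.5% in the same order. Promoters under an RNF2 peak and no island had 31.8% per gene and 31.4% within CpG-rich windows. Both values lie within the members' intervals.

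The other motifs differed between the sets to varying degrees. The GC box was in 72.4% (61.8 to 81.5) of member windows, against 84.1% under peaks with both features, 64.8% under an RNF2 peak and no island and 56.3% of all coding windows. The CCAAT box was in 48.3% (37.4 to 59.2), against 37.0%, 45.4% and 34.7%. The m6A-type GGACT string was in 46.0% of member windows and in 45.3% of all coding windows, a near-equal share. The E-box was in 3.45% (0.717 to 9.75) of member windows and 10.6% (9.46 to 11.9) of those under peaks with both features. The YY1-type site was in 17.2% of member windows and 13.1% of all coding windows, and the NRF1-type site in 8.05% and 3.74%. The cAMP response element, the E2F site and the TATA box were in 4.60% of member windows each (1.27 to 11.4), against 2.26%, 3.98% and 9.47% of all coding windows. A match is a string of letters and not a site of binding.

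**Figure D5:**
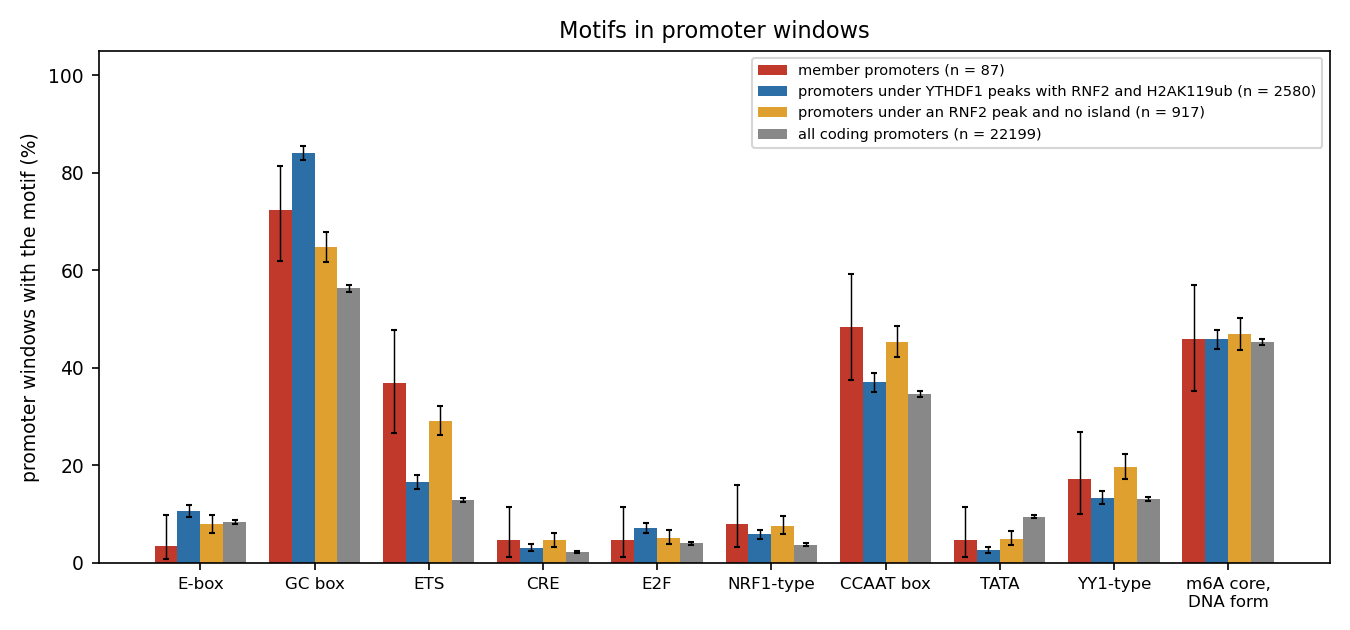
Share of promoter windows (%, vertical axis) that hold each of 10 motifs (horizontal axis) on either strand, for member promoters (n = 87), promoters under YTHDF1 peaks with RNF2 and H2AK119ub (n = 2580), promoters under an RNF2 peak and no island (n = 917) and all coding promoters (n = 22199). Bars give the share and lines the exact 95% interval. The ETS core stands at 36.8% in member promoters, 29.1% under an RNF2 peak and no island and 16.5% under peaks with both features. The m6A core string is level in the 4 sets.

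Few genes of the listed families carried a member inside them or within 2 kb of an end. Over all coding genes 163 of 20037 (0.813%) did. Zinc-finger genes named ZNF, many of which encode repressors of transposable elements, did so in 12 of 477 (2.52%), while 83 of the 477 (17.4%) had a YTHDF1 peak with both features and 23.0% of all coding genes did. These 12 were ZNF548, ZNF493, ZNF285, ZNF582, ZNF227, ZNF140, ZNF25, ZNF699, ZNF644, ZNF43, ZNF333 and ZNF615. Their 13 members included 2 at ZNF43. Of the 13, 10 were on chromosome 19, at several places along it, and neighbouring genes there are not independent. That chromosome held 14 members in all. YTHDF1 fold enrichment ranged from 2.69 at ZNF615 to 4.35 at ZNF548, and RNF2 fold enrichment from 2.72 to 4.03. A coding-gene end was within 2 kb of 11 of the 13. The RNF2 peak reached an island at ZNF582 alone, 196 bp away, and the median distance to an island was 27.1 kb. Of the 10 coding windows of 9 ZNF genes that members overlapped, 4 held the ETS core in their upstream 250 bases, as did 28 of all 87 member windows.

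The m6A and ribosomal lists had 3 genes with a member. Of 21 m6A genes, HNRNPA2B1, which encodes an m6A-associated RNA-binding protein, and VIRMA, a scaffold of the m6A writer complex, carried one. Their YTHDF1 fold enrichments were 2.62 and 2.64, near the low end of the members, and their RNF2 fold enrichments 4.38 and 2.44. The island was 345 bp from the HNRNPA2B1 member and 75.2 kb from the VIRMA member. Of 80 ribosomal protein genes, RPL9 carried one, with a YTHDF1 fold enrichment of 2.88. No member was at any of 39 HOX genes, although 20 of them (51.3%) had a YTHDF1 peak with both features. None was at 20 immediate early genes either, of which 16 (80.0%) had such a peak. Members were also absent from the lists of 30 PRC1, 13 PRC2, 20 pluripotency, 20 germline, 69 histone, 390 olfactory receptor and 443 transfer RNA genes. The share of 0.813% over coding genes amounts to fewer than 1 gene in each of these coding lists except the olfactory receptor list. Most of these counts of 0 are thus near the background. That share counts members inside genes, and gene length was not matched, so the olfactory receptor count is not read as a shortfall. Transfer RNA genes are not coding genes, so their count was not set against it. Olfactory receptor and transfer RNA genes had a YTHDF1 peak of any class in 12.8% and 13.1%.

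Of the members, 1 overlapped a YTHDF1 peak of the YTHDF1 KD cells (0.450%, 0.0114 to 2.48). The background was 0.162% of all YTHDF1 peaks, and 60 of the 5419 peaks with both features (1.11%, 0.846 to 1.42) did so. The member, chr11:20554745-20555922, lay more than 10 kb from any coding-gene end and had a YTHDF1 fold enrichment of 2.79 in untreated cells. Its RNF2 peak was 318 bp wide with 2.99-fold enrichment. The KD peak, chr11:20555801-20556242, had 3.89-fold enrichment and shared 122 bp with the member. The KD list held 226 peaks, with a lowest −log10 q of 4.007, against 1.502 in the list of untreated cells. Of the members, 206 had a −log10 q below 4, under that KD minimum, so members without a KD peak were not read as lost.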

How the data were processed

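Peak lists of H1 cells, each merged from 2 replicates per the labels, were analysed. The build was hg38 and the tools named were MACS2 2.1.0, SICER 1.1, Bowtie2 2.2.5, Picard, Trimmomatic 0.35 and SAMtools 1.3.1, per the submitters' processing notes. Which caller made which list, and with what settings, is not given in the sources used here. Per peak, the deposited YTHDF1, RNF2 and KD lists give a fold enrichment (a ratio), a −log10 p and a −log10 q, and the deposited score is 10 times the −log10 p, capped at 1000. The deposited score of the H2AK119ub islands has no stated scale, and 1 was added to island ends. All are the authors' values and were used only within their list.

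Overlaps, distances and shares were computed with Python 3.11.15, pandas 2.3.3, numpy 2.4.6 and scipy 1.17.1, and the overlap and distance code was tested on simulated intervals. Coordinates are 1-based. Genes and promoter windows come from RefSeq tables (GRCh38.p14); the gene table gives no strand. Depth was unknown, and no test was run. Genes were named at the 10 strongest members by −log10 p, the 10 with the highest RNF2 fold, the 5 nearest to and 5 farthest from an island, the 5 peaks just outside the rule, the 12 strongest on coding promoter windows, the member with a KD peak, and listed genes with a member; others were named after their values were seen. An item this rule took is not reported here. A gene name stands for an overlapped coding gene, else a coding-gene end within 10 kb, else an overlapped noncoding gene. The members and gene lists were chosen with earlier results of these data known. No column of another sample was used.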

Additional observations from a re-analysis of the deposited data

How the results depend on the processing

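No paired analysis was possible because the replicates of each group had been merged into 1 list before deposit, and for the same reason leaving out a replicate was not possible. Of 27 alternatives, 19 stayed close to the reported value (a count within 1.5 times, a share or median within its 95% interval) and 8 did not. The number of members was 222. It fell to 133 with islands widened by 5 kb, to 72 with the better-scoring 50% of RNF2 peaks, to 125 with the better-scoring 50% of YTHDF1 peaks and to 16 at a −log10 q of at least 4, each by the construction of a stricter rule. It was 269 when an overlap of 50% of the shorter peak was asked of RNF2 and of islands alike, and the share at coding-gene ends was then 49.8%, the median RNF2 fold enrichment 3.60 and the median distance to an island 3046 bp, which counts peaks that touch an island by less as members. With the better-scoring 50% of islands the median distance was 26023.5 bp. Weak peaks near the authors' threshold make up much of this set, as of the whole YTHDF1 list, and depth, which limits them, was unknown. The ETS alternatives were added after the data had been seen. The members' share was 39.7% per gene, 37.2% in CpG-rich windows and 46.7% (31.7 to 62.1) in windows of 57.3 to 64.7% GC. Promoters under an RNF2 peak and no island had 31.8%, 31.4% and 33.6% in the same order.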

Other observations

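The fold enrichments of members were not spread evenly. They took 113 distinct values over the 222 members, and the commonest, 2.81, was shared by 22 of them; the whole list of 44498 YTHDF1 peaks held 938 distinct values. Chromosome X held 3 members among 93 YTHDF1 peaks (3.23%), and chromosome 19 held 14 among 1584 (0.884%). The background was 0.499% of all YTHDF1 peaks. Chromosomes 20, 18 and 21 had 0.855%, 0.823% and 0.815%, close to chromosome 19, and the chromosome X share rests on 3 peaks.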
